A study of Mus musculus with 12 samples.

Results

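Transcript levels are described here for 9 genes of mouse brown fat: Cirbp and Rbm3, which encode RNA-binding proteins known for their induction by cold, Clk1 and Clk4, which encode kinases of splicing factors, and Srsf2, Srsf3, Srsf5, Srsf6 and Srsf7, which encode serine- and arginine-rich (SR) splicing factors. The rule lists the genes by name and uses no measured value, though the list was drawn up with earlier results of these data known. All 9 were found among the 53379 gene IDs of the count files. All 9 passed the filter on low counts. Neither Cirbp nor Rbm3 was called higher in the cold at the level of transcript. Cirbp fell in the cold in both genotypes, and Rbm3 did not pass the test in any comparison under TMM scaling. The labels used here give no temperature of the tissue.

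The study sequenced RNA of interscapular brown adipose tissue from C57BL/6 mice aged 12 weeks. CDK7 is the kinase subunit of the transcription factor TFIIH complex. There were 4 groups of 3 pools each, and every pool held RNA of 2 mice, 250 ng from each animal. The groups were wild type and Cdk7 bKO mice (a knockout directed to brown fat, written KO below), kept at room temperature or killed after 6 hours of cold with food. Every animal was on the same strain, and the wild-type groups are the control in both genotype comparisons. All pools share zeitgeber hour 9, counted from lights on. The sources used here do not give what drives the deletion, how cold the exposure was, the animals' sex or the library kit. A pool averages its mice, so the spread between pools understates the spread between animals.

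Levels are CPM, counts scaled to a common library size with TMM factors (edgeR's correction of library totals), and an error is the SD over 3 pools. Total gene counts ran from 27609717 to 36792555 per library. The TMM factors differed between groups: they lay between 0.798 and 0.87 in the cold wild-type pools and between 1.07 and 1.18 in the KO pools. Cdk7 was at 16.4, 15.1 and 16.1 CPM in wild type at room temperature and at 4.35, 5.15 and 5.77 CPM in KO, so that the labels of the room-temperature pools were borne out by the targeted gene. In the cold it was at 18, 16.1 and 15.7 CPM in wild type and 5.39, 4.85 and 5.39 CPM in KO. All 10 brown adipocyte markers reached 10 counts in every library. Their summed level was 19100 to 21500 CPM in wild type and 12800 to 15900 CPM in KO at room temperature, and 27100 to 30000 CPM and 14200 to 15200 CPM in the cold. A large part of this sum was Ucp1, the uncoupling protein of brown fat. Its mean in wild type was 7310 CPM without cold and 16100 CPM after cold, and in KO 3970 and 4070 CPM. Under cold, wild type had 2 of the 10 markers called higher and 2 lower, with a median log2 fold change of -0.01. KO against wild type had 0 higher and 6 lower without cold, and 0 higher and 4 lower after it. The share of brown adipocytes was not tested. Skeletal muscle markers differed between pools of 1 group, and the room-temperature libraries wild type pool 2 (1080 CPM) and KO pool 6 (1410 CPM) held most.

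CIRBP and RBM3 are small proteins with an RNA recognition motif and a glycine-rich tail; in cultured cells their transcripts are known to accumulate when temperature drops mildly, and they bind and stabilise other messages. CDC2-like kinases (CLKs) phosphorylate the arginine-serine tails of SR proteins in the nucleus, and their activity is known to be sensitive to temperature in the range of body heat. SR proteins bind exonic enhancers and promote the use of nearby splice sites, and many control their own message through a poison exon or retained intron that sends it to nonsense-mediated decay (NMD).

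The 9 genes are protein coding and lie on 7 chromosomes. On GRCm38 with the GENCODE M21 annotation, Cirbp (ENSMUSG00000045193) spans chr10:80165985-80172786 on the plus strand and Rbm3 (ENSMUSG00000031167) spans chrX:8138975-8145880 on the minus strand. Clk1 (ENSMUSG00000026034) spans chr1:58410189-58424066 on the minus strand and Clk4 (ENSMUSG00000020385) spans chr11:51261730-51281766 on the plus strand. Of the SR genes, Srsf2 (ENSMUSG00000034120) spans chr11:116849901-116853094 on the minus strand and Srsf3 (ENSMUSG00000071172) spans chr17:29032628-29043373 on the plus strand. Srsf5 (ENSMUSG00000021134) spans chr12:80945504-80950507 and Srsf6 (ENSMUSG00000016921) spans chr2:162931528-162937121, both on the plus strand, and Srsf7 (ENSMUSG00000024097) spans chr17:80200080-80207307 on the minus strand. A shared feature of these genes is that each of the 9 has at least 1 annotated NMD transcript and at least 1 with a retained intron. Among 21865 protein-coding genes of the files, 20.8% had an annotated NMD transcript and 41.7% a retained-intron transcript. Clk1 and Clk4 each had 7 retained-intron transcripts, of 13 and 14 transcripts in all. The counts are sums over a gene, so a productive message and one with a poison exon or a retained intron cannot be told apart in any value below. On the opposite strand, exons of Mettl23 (460 bp) and Mfsd11 (288 bp) overlap those of Srsf2, and exons of Rbm3os (94 bp) overlap those of Rbm3. Gm25082, on the same strand, shares 59 bp of exon with Clk4. These 3 genes' counts are uncertain to that extent.

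Promoter stretches of 3 genes called in some comparison are shown. Cirbp and Srsf7 hold the mild-cold response element described for Cirbp. Clk4 holds a cyclic AMP response element, a kind of site through which cyclic AMP signalling can act. Cirbp and Clk4 were called for cold, Clk4 in wild type alone, but Srsf7 only between genotypes in the cold. The Clk4 call was lost in 6 alternatives, and no link between an element and a call was tested. Srsf3 and Srsf6, also called in some comparison, held neither element and are not shown. The stretches come from RefSeq on GRCm38.p6, which had windows from 250 bases before to 50 after the start for 7 of the 9 genes. Printed is the longest run of bases before that start that no annotated exon covers, 5′ to 3′ on the gene's strand. For Cirbp and Clk4 it lies inside the gene span given above, so longer annotated transcripts start before it. Capitals mark the mild-cold response element TCCCCGCC, the cyclic AMP response element TGACGTCA, the GC box GGGCGG and the CCAAT box CCAAT, on either strand. The stretches lie at chr10:80167589-80167777 on the plus strand (Cirbp), at chr11:51263047-51263113 on the plus strand (Clk4) and at chr17:80207308-80207459 on the minus strand (Srsf7).
Cirbp: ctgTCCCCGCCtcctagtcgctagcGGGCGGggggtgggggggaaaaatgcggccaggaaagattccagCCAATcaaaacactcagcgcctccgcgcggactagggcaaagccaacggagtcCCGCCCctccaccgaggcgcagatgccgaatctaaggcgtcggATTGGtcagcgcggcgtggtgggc
Clk4: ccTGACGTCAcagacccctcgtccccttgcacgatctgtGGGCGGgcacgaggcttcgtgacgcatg
Srsf7: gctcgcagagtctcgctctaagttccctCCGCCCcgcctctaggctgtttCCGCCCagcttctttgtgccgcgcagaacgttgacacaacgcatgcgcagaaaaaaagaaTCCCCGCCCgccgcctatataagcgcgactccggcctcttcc
In Cirbp the mild-cold response element lies at bases -247 to -240 from the start, and in Srsf7 at bases -44 to -37, where it overlaps a GC box. Cirbp had another window, not shown, whose only matches were GC boxes. In Clk4 the cyclic AMP response element lies at bases -65 to -58. Of 32851 promoter windows of the same length, 5.38% held the mild-cold response element, 1.79% the cyclic AMP response element, 35.7% a GC box and 37.4% a CCAAT box. Of the 7 genes with a window, 6 held a GC box and 3 (Cirbp, Srsf2 and Srsf3) a CCAAT box. The heat shock element core GAANNTTC (7.86% of windows) and the E-box CACGTG (7.15%) were in none of these genes' windows. A match of letters is a description of the sequence and not a measured binding site.

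Per kilobase of exon, the genes covered a wide range of levels in wild type at room temperature. Srsf5 was highest at 42.2 ± 5.19 CPM per kb, followed by Srsf2 at 35.8 ± 1.92 and Srsf6 at 14.5 ± 0.162 CPM per kb (SD, n = 3), and these 3 did not overlap in any of the 4 groups. Clk1 (9.89 ± 2.33), Rbm3 (9.29 ± 1.35), Clk4 (9.11 ± 0.959) and Srsf7 (7.62 ± 0.511 CPM per kb) came next, each overlapping its neighbour in that order. Cirbp was lowest at 4.23 ± 0.51 CPM per kb. It was lowest also in both cold groups, at 1.8 CPM per kb in wild type and 3.69 in KO, while in KO at room temperature its 6.09 CPM per kb overlapped the 5.26 of Srsf3. On the scale of CPM per gene, Cirbp lay above 50.2% of the 15208 genes tested and Srsf5 above 96.5%.

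**Figure D1:**
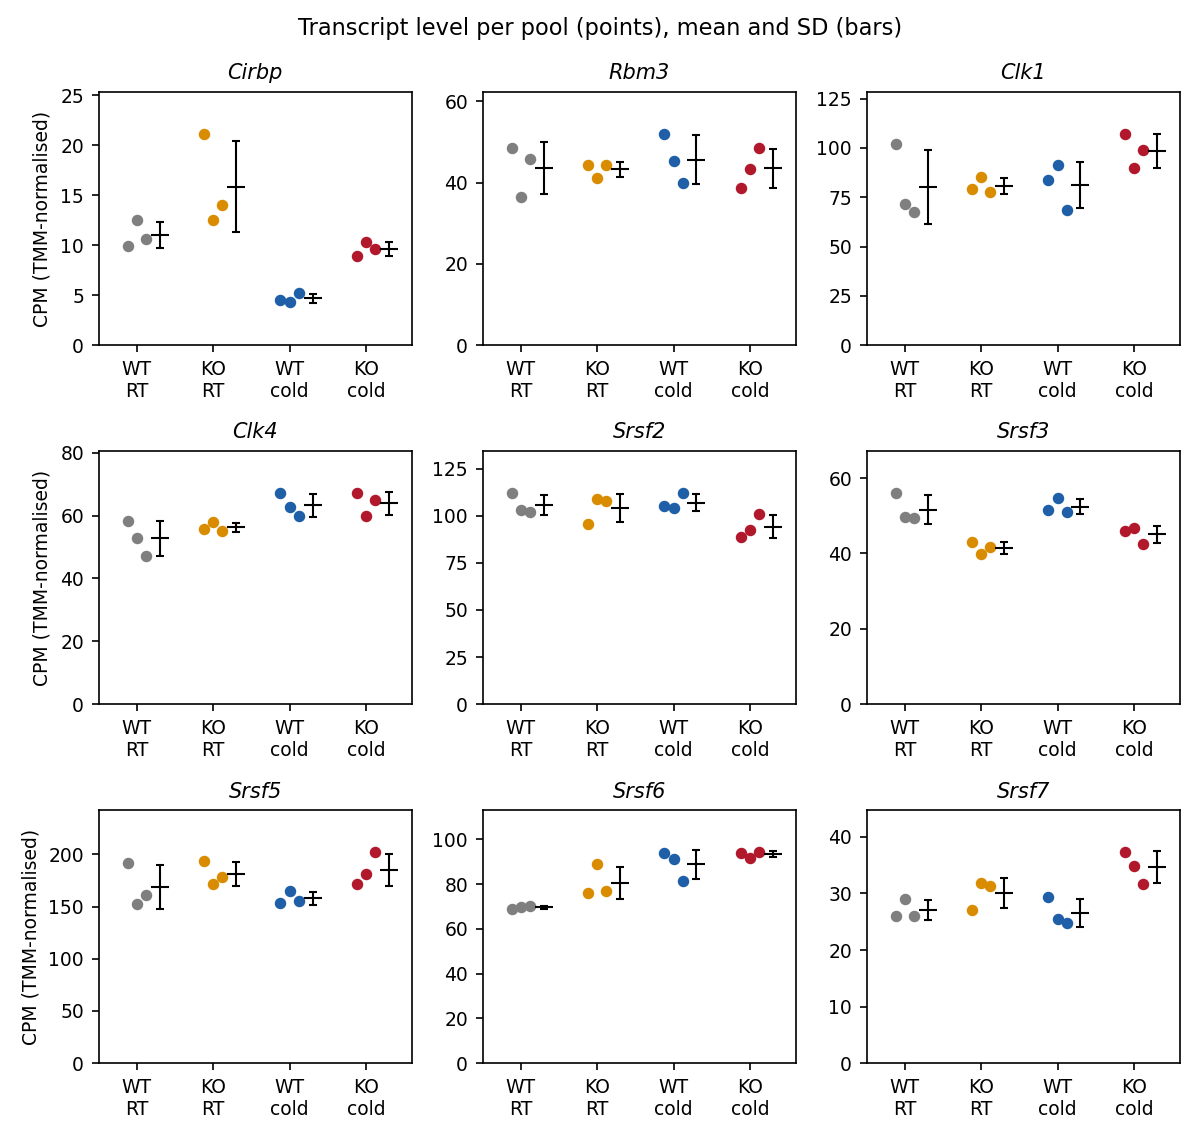
TMM-normalised CPM (vertical axis, from 0) of the 9 genes in the 4 groups, with 1 point per pool and bars for the mean and SD of 3 pools. Cirbp is lowest in the cold wild-type pools, at 4.36 to 5.18 CPM, and the 4 groups of Rbm3 overlap.

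Cold lowered Cirbp in wild-type brown fat. Its level was 9.93, 12.5 and 10.6 CPM in the room-temperature pools and 4.5, 4.36 and 5.18 CPM in the cold pools. The groups did not overlap, and each cold pool was below each pool of room temperature. The fitted log2 fold change was -1.23 ± 0.17 (SE; 95% interval -1.6 to -0.87), which leaves 42.5% of the level at room temperature (adjusted p = 2.6e-05, quasi-likelihood test of edgeR, Benjamini-Hochberg adjustment over all genes tested, as for each adjusted p below). In KO, Cirbp was at 21.1, 12.5 and 14 CPM at room temperature and at 8.9, 10.3 and 9.65 CPM in the cold. Again no pools overlapped, and the log2 fold change was -0.72 ± 0.16 (95% interval -1.06 to -0.38; adjusted p = 0.0068), which leaves 60.5%. KO pool 4 stood highest of all 12 libraries, and without it the fall in KO was -0.46 on the log2 scale and still passed. Both falls kept their call in each alternative that gave a value, from -1.44 to -1.13 in wild type and from -0.87 to -0.46 in KO. Cirbp was 1 of 632 genes called lower in the cold in both genotypes, which are 4.16% of the genes tested. In bulk tissue, fewer cells of a type and less RNA per cell cannot be told apart.

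Rbm3 did not follow. It was at 48.6, 36.5 and 45.8 CPM in wild type at room temperature and at 51.9, 45.2 and 39.8 CPM in the cold, so the groups overlapped. Its log2 fold change in the cold was 0.07 ± 0.12 in wild type (95% interval -0.18 to 0.31; adjusted p = 0.67) and 0.01 ± 0.11 in KO (95% interval -0.24 to 0.25; adjusted p = 0.98). A rise of Rbm3 in wild type by more than 0.31 on the log2 scale lies outside that interval. Across the 12 libraries the log2 CPM of Cirbp and Rbm3 had a Pearson r of -0.24, a description over points that share groups.

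Of the kinases, Clk4 rose in wild type in the cold. Its 3 room-temperature pools were at 58.3, 52.9 and 47.2 CPM and its cold pools at 67.1, 62.8 and 59.8 CPM, and they did not overlap. The log2 fold change was 0.26 ± 0.09 (adjusted p = 0.019). This call was lost in 6 of the alternatives: with library totals in place of TMM factors (0.07), with no filter on low counts (0.24), without the libraries richest in muscle markers (0.26), and without room-temperature pool 3 (0.18), cold pool 1 (0.22) or cold pool 2 (0.27). Clk1 was spread widely at room temperature, at 102, 71.5 and 67.5 CPM in wild type, and its cold pools at 83.7, 91.2 and 68.4 CPM fell within that span. Its log2 fold change was 0.01 ± 0.14 (95% interval -0.29 to 0.32; adjusted p = 0.95). In KO both kinases had each cold pool above each room-temperature pool, with log2 fold changes of 0.29 ± 0.14 for Clk1 (adjusted p = 0.2) and 0.19 ± 0.09 for Clk4 (adjusted p = 0.16), and neither passed. The Clk1 comparison in KO passed with no filter (0.31), with only the 6 libraries compared (0.3) and without wild-type room-temperature pool 1 (0.3), the library with the 102 CPM above.

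Of the SR proteins, Srsf6, a regulator of alternative exons, rose in wild type in the cold. It was at 68.8, 69.8 and 70.3 CPM at room temperature and at 94, 91.2 and 81.5 CPM in the cold. The room-temperature pools lay within a narrow band below every cold pool, and the log2 fold change was 0.35 ± 0.08 (fold 1.28; adjusted p = 0.0021). With library totals alone it was 0.16 and did not pass. In KO, Srsf6 was at 76, 88.9 and 76.9 CPM and at 94, 91.9 and 94.3 CPM, which did not overlap, and its log2 fold change of 0.21 ± 0.08 did not pass (adjusted p = 0.09). That comparison passed with limma's voom (0.23) and without KO room-temperature pool 5 (0.29).

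The other 4 SR genes did not pass the test for cold in either genotype. In wild type, Srsf2 was at 112, 103 and 102 CPM and then at 105, 104 and 112 CPM, and Srsf3, the smallest SR protein, was at 56, 49.6 and 49.3 CPM and then at 51.5, 54.8 and 51.1 CPM. Srsf5, the most abundant of the 9, was at 192, 152 and 161 CPM and then at 153, 165 and 155 CPM. Srsf7, a close relative of Srsf3, was at 26, 29.1 and 26 CPM and then at 29.3, 25.5 and 24.8 CPM. The groups of each of these 4 genes overlapped. Their log2 fold changes in wild type ran from -0.09 ± 0.1 (Srsf5) to 0.02 ± 0.08 (Srsf3), and in KO from -0.15 ± 0.08 (Srsf2) to 0.21 ± 0.1 (Srsf7). At room temperature the KO pools of Srsf2 were at 95.4, 109 and 108 CPM and those of Srsf5 at 194, 172 and 178 CPM, overlapping wild type for both genes.

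By count, 2 of the 9 were called higher in the cold in wild type (Clk4 and Srsf6), 1 lower (Cirbp) and 6 did not pass. Of all genes tested, 46.3% were called in that comparison under TMM scaling, 23% higher and 23.2% lower. With only 9 members, their count beside that share is not read as a trait of them. The members' median log2 fold change was 0.01 and that of all genes was -0.03. In KO, 1 member was called lower and 8 did not pass, beside 14.8% of all genes called, 7.29% higher and 7.56% lower. For 0 members called higher there, 4 of the 9 were at an unadjusted p under 0.05 in either direction, beside 4469 of 15208 genes, and limma's voom called 1 higher. Groups of pools did not overlap for 3 members in wild type (2 above and 1 below), beside 55.4% of all genes, 27.6% above and 27.9% below. In KO they did not overlap for 4 (3 above and 1 below), beside 32.8%, 15.3% above and 17.4% below. No member was called higher in the cold in both genotypes, as 4.74% of all genes were.

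Whether the cold response differed between genotypes was tested as the interaction of both factors. For Cirbp the difference, KO minus wild type, was 0.51 ± 0.23 on the log2 scale (95% interval 0.01 to 1.01), with an unadjusted p of 0.045 and an adjusted p of 0.13. No member was called by edgeR after adjustment, beside 23.5% of all genes, and 1 was at an unadjusted p under 0.05, beside 5460 of 15208 genes. Cirbp passed with library totals (0.74), with no filter (0.56), with limma's voom (0.72) and without KO room-temperature pool 4 (0.77). For the other members the difference ran from -0.16 ± 0.12 (Srsf2) to 0.27 ± 0.2 (Clk1). These 5 comparisons share groups of pools and are not independent of each other.

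**Figure D2:**
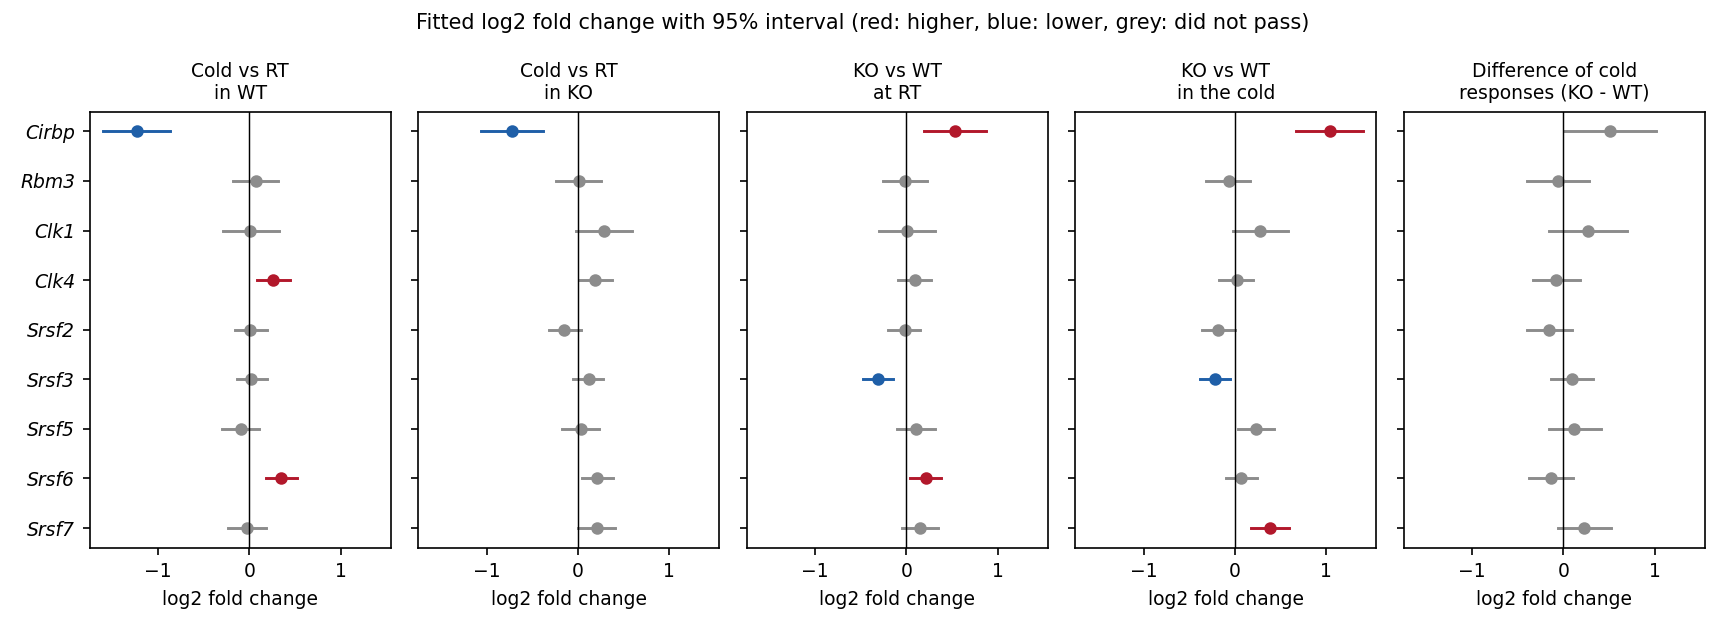
Fitted log2 fold change (horizontal axis) of the 9 genes in the 4 comparisons and in the difference of the cold responses, with 95% intervals; red and blue mark genes called higher and lower, grey those that did not pass. Cirbp lies farthest from 0 in all 5 panels, at -1.23 in wild type in the cold and at 1.04 in KO against wild type in the cold.

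Cirbp was higher in KO than in wild type in the cold. The KO pools at 8.9, 10.3 and 9.65 CPM all lay above the wild-type pools at 4.5, 4.36 and 5.18 CPM. The log2 fold change was 1.04 ± 0.17 (95% interval 0.67 to 1.4; fold 2.05; adjusted p = 0.00012), and it kept its call and direction in all 23 alternatives that gave a value, from 0.98 to 1.47. At room temperature the groups overlapped, since KO pool 5 and wild-type pool 2 were both at 12.5 CPM. There the log2 fold change was 0.53 ± 0.16 (fold 1.44; adjusted p = 0.016). That call was lost with only the 6 libraries compared (0.54) and without wild-type pool 1 (0.46), wild-type pool 3 (0.49) or KO pool 4 (0.26). Genes called higher in KO at both temperatures made up 11.8% of those tested.

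Among SR genes, Srsf7 was higher and Srsf3 lower in KO in the cold. Srsf7 was at 37.3, 34.9 and 31.7 CPM in KO against 29.3, 25.5 and 24.8 CPM in wild type, with no overlap. Its log2 fold change was 0.38 ± 0.1 (fold 1.3; adjusted p = 0.0033), and the call was kept in every alternative, from 0.33 to 0.82. At room temperature Srsf7 was at 27, 31.8 and 31.4 CPM in KO, which overlapped wild type, and its value of 0.15 ± 0.1 did not pass (adjusted p = 0.22).

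Srsf3 was at 45.9, 46.7 and 42.6 CPM in KO in the cold, all below the wild-type pools. The log2 fold change was -0.22 ± 0.08 (adjusted p = 0.025). It turned to 0.22 with library totals alone, and the call was lost with no filter (-0.2), with a stricter filter (-0.16), without wild-type pool 2 (-0.18) and without KO pool 3 (-0.18). At room temperature Srsf3 was at 43.1, 39.9 and 41.7 CPM in KO, again below the wild-type pools, with a log2 fold change of -0.31 ± 0.08 (adjusted p = 0.0045). With library totals that value was -0.09 and did not pass.

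Srsf6 was at 76, 88.9 and 76.9 CPM in KO at room temperature, above the wild-type pools at 68.8, 69.8 and 70.3 CPM. The log2 fold change of 0.21 ± 0.08 passed narrowly (adjusted p = 0.049). The call was lost in 16 of 22 alternatives, among them without any 1 of the 3 wild-type pools (0.2 to 0.21), KO pool 5 (0.13) or KO pool 6 (0.24). It was lost too without wild-type cold pool 1 or 2 or any of the KO cold pools, at 0.21 each. In the cold the genotypes overlapped, and the value was 0.07 ± 0.08 (adjusted p = 0.48).

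Srsf5 and Srsf2 had cold pools that did not overlap between genotypes but did not pass. Srsf5 was at 172, 181 and 202 CPM in KO against 153, 165 and 155 CPM in wild type, with a log2 fold change of 0.23 ± 0.1 (adjusted p = 0.052). It passed in 9 of 23 alternatives, including without wild-type room-temperature pool 1 (0.24), KO room-temperature pool 4 (0.23) or KO cold pool 1 (0.28). Srsf2 was at 89, 92.5 and 101 CPM in KO, below the 104 to 112 CPM of wild type, with a log2 fold change of -0.18 ± 0.08 (adjusted p = 0.078). It passed with limma's voom (-0.19) and without KO cold pool 3 (-0.24), and it was 0.26 with library totals.

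The kinases and Rbm3 did not pass between genotypes. Clk1 was at 107, 89.7 and 98.9 CPM in KO in the cold, overlapping wild type, with a log2 fold change of 0.28 ± 0.14 (adjusted p = 0.11), and it passed in 4 alternatives, from 0.29 without wild-type room-temperature pool 1 to 0.72 with library totals. Clk4 was at 67.1, 59.8 and 64.8 CPM there, with a log2 fold change of 0.02 ± 0.09 (adjusted p = 0.89). At room temperature Clk1 was at 79, 85.5 and 77.6 CPM and Clk4 at 55.6, 57.8 and 55.2 CPM in KO, both overlapping wild type. Rbm3 was at 44.4, 41.1 and 44.2 CPM in KO at room temperature and at 38.7, 43.3 and 48.4 CPM in the cold, and its log2 fold changes were -0.01 ± 0.12 (adjusted p = 0.94) and -0.07 ± 0.12 (adjusted p = 0.62). With library totals they were 0.21 and 0.36.

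By count, 2 members were called higher in KO (Cirbp and Srsf6) and 1 lower (Srsf3) at room temperature, beside 40.4% of all genes called, 19.3% higher and 21% lower. In the cold 2 were called higher (Cirbp and Srsf7) and 1 lower (Srsf3), beside 53.7% of all genes, 25.9% higher and 27.8% lower. These counts are under TMM scaling, and with so few members they are not read as a trait of them. Groups did not overlap for 2 members at room temperature (1 above and 1 below), beside 48.8% of all genes, 23.9% above and 24.9% below. In the cold they did not overlap for 5 (3 above and 2 below), beside 62.7%, 30.6% above and 32.1% below. The members' medians were 0.09 and 0.07, and those of all genes 0 and 0.01. The scaling bears on these counts: when libraries were scaled by totals only, the all-gene median was 0.22 at room temperature and 0.45 in the cold, and 5 and 9 members were called higher and 0 lower, beside 4739 higher and 1267 lower, and 7881 higher and 1073 lower, of 15208 genes. All 10 macrophage markers were higher in KO at both temperatures, with a summed level of 252 to 325 CPM against 71.1 to 97.3 CPM at room temperature and 297 to 411 CPM against 108 to 111 CPM in the cold. The 6 endothelial markers summed to 646 to 666 CPM against 442 to 543 CPM, and to 642 to 766 CPM against 592 to 608 CPM. Their part in the members' values was not tested.

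The members varied differently from each other across the 12 libraries. The highest correlation of log2 CPM between members was that of Clk4 and Srsf6 (Pearson r 0.82), followed by Clk1 and Clk4 (0.7). The lowest were Cirbp with Srsf3 (-0.64) and Srsf2 with Srsf7 (-0.62). Among 10347 genes compared, the patterns most like Cirbp were those of Ctc1 and Fbxl20 (r 0.957 each), Tbc1d9b and Tnxb (0.953 each) and Aacs (0.952). Aacs, acetoacetyl-CoA synthetase, went from a mean of 159 CPM to 26.9 CPM in wild type and from 192 to 121 CPM in KO in the cold. For Rbm3 the nearest were Gpn2 (0.793), Ier2 (0.771) and Snrnp70 (0.738), for Clk1 Gem (0.890) and Hivep1 (0.831), and for Srsf5 Lrpap1 (0.897) and S100a16 (0.896). All of these are descriptions over 12 points that share groups and depth.

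Other genes of the pathway are given by list. Of all genes tested, 23% were called higher and 23.2% lower for cold in wild type, and 7.29% and 7.56% in KO. For KO against wild type the shares were 19.3% and 21% at room temperature and 25.9% and 27.8% in the cold. With library totals, cold in wild type had 1826 of 15208 genes higher and 4813 lower. The nearest relatives, 7 tested genes of the other SR and Tra2 proteins, held none that passed edgeR's test for cold in wild type (0 at an unadjusted p under 0.05, and 2 lower with library totals) and 2 that rose in KO. Tra2a, a splicing activator that binds exonic enhancers, was at 68.4, 85.5 and 79 CPM in KO at room temperature and at 125, 110 and 119 CPM in the cold, and at 55.7 to 68.2 CPM in all wild-type pools. Its log2 fold change in the cold was 0.6 ± 0.09 in KO (adjusted p = 0.00042), and KO was above wild type in the cold by 0.95 ± 0.09 (adjusted p = 6.4e-07). Tra2b, its paralog, rose in KO by 0.41 ± 0.08 on the log2 scale (adjusted p = 0.0041). Srsf10, a splicing repressor, was lower in KO with a log2 fold change of -0.49 ± 0.1 at room temperature (adjusted p = 0.0014). In the cold its value was -0.53 ± 0.1 (adjusted p = 0.00043). With library totals these values were -0.28 and -0.09 and did not pass.

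Of 9 other kinases tested, those of SR proteins and of related families, 4 rose and 2 fell in wild type in the cold (3 and 4 with library totals). Dyrk1a, a kinase found in nuclear speckles, rose by 0.67 ± 0.09 (adjusted p = 1.1e-05), and Srpk1, which phosphorylates SR proteins in the cytoplasm, by 0.49 ± 0.08 (adjusted p = 0.00011). In KO, 1 rose and 2 fell. Against wild type in the cold, 7 of the 9 were lower in KO, led by Hipk2 (-0.86 ± 0.11) and Dyrk2 (-0.86 ± 0.12), and with library totals 2 were lower and 2 higher. Tnpo3, the importin that carries SR proteins into the nucleus, rose in wild type by 0.83 ± 0.08 (adjusted p = 5.9e-07), 1 of 2 of the 6 transport genes that did (1 rose and 1 fell with library totals).

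Genes of the decay pathway that acts on poison-exon messages rose in wild type in the cold more often than they fell: 10 of 16 were higher and 1 lower, with a median of 0.31. Of all genes tested, 23% were higher and 23.2% lower, with a median of -0.03. With library totals 5 were higher and 2 lower, with a median of 0.12. Rbm8a, the core exon junction protein Y14, was at 25, 22 and 22.6 CPM at room temperature and at 49, 47.5 and 43.8 CPM in the cold, and rose by 1.01 ± 0.08 (adjusted p = 1.1e-07). Casc3, another exon junction protein, rose by 0.49 ± 0.08 (adjusted p = 8.2e-05). In KO 4 rose and none fell by edgeR's test. There 7 of the 16 were at an unadjusted p under 0.05 in either direction, beside 4469 of 15208 genes. In KO against wild type in the cold 8 were lower and 1 higher, and with library totals 8 were higher and 0 lower.

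Of 27 spliceosome and speckle genes, 11 rose and 0 fell in wild type in the cold (4 and 2 with library totals), led by Sf3a1 and Sf3b3, both parts of the U2 particle, at 0.72 ± 0.09 and 0.57 ± 0.1. Of 24 hnRNP genes, which often oppose SR proteins, 6 rose and 2 fell (3 and 4 with library totals), with Hnrnpf at 0.58 ± 0.08 and Hnrnpr at -0.46 ± 0.08. The 25% of hnRNP genes that rose was near the 23% of all genes tested. Of 17 genes of other RNA-binding proteins, 7 rose and 2 fell (3 and 3 with library totals), with Rbm17 at 0.79 ± 0.12 and Luc7l2 at -0.65 ± 0.09.

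Heat shock genes, whose products refold proteins, moved opposite to Cirbp in the cold. Of 13, 12 rose in wild type with a median log2 fold change of 2.13, and 12 rose and 1 fell in KO with a median of 0.94. Hspa8, the constitutive HSP70, was at 511, 512 and 565 CPM and then at 4460, 4990 and 4110 CPM in wild type, a log2 fold change of 3.09 ± 0.11 (adjusted p = 7.3e-12). In KO it was at 768, 700 and 659 CPM and then at 1250, 1390 and 1310 CPM, a log2 fold change of 0.9 ± 0.1 (adjusted p = 1.9e-05). At room temperature 9 of the 13 were higher in KO and 1 lower, with Hspb1 at 1.15 ± 0.1 (adjusted p = 5.9e-07), and in the cold 3 were higher and 7 lower (5 and 4 with library totals). No relation between these genes and Cirbp was tested.

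**Figure D3:**
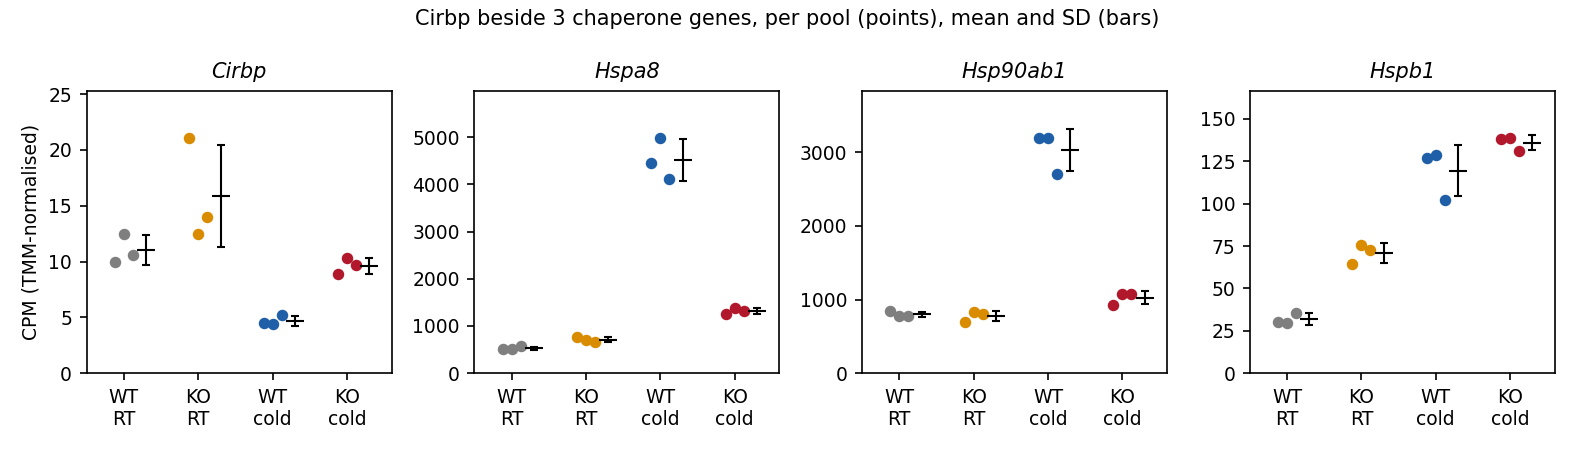
TMM-normalised CPM (vertical axes, from 0) of Cirbp and 3 chaperone genes in the 4 groups, with 1 point per pool and bars for the mean and SD. Hspa8 is highest in the cold wild-type pools, at 4110 to 4990 CPM, where Cirbp is lowest, at 4.36 to 5.18 CPM. Hspb1 instead has its highest mean in the cold KO pools, at 136 CPM beside 119 CPM in cold wild type.

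**Figure D4:**
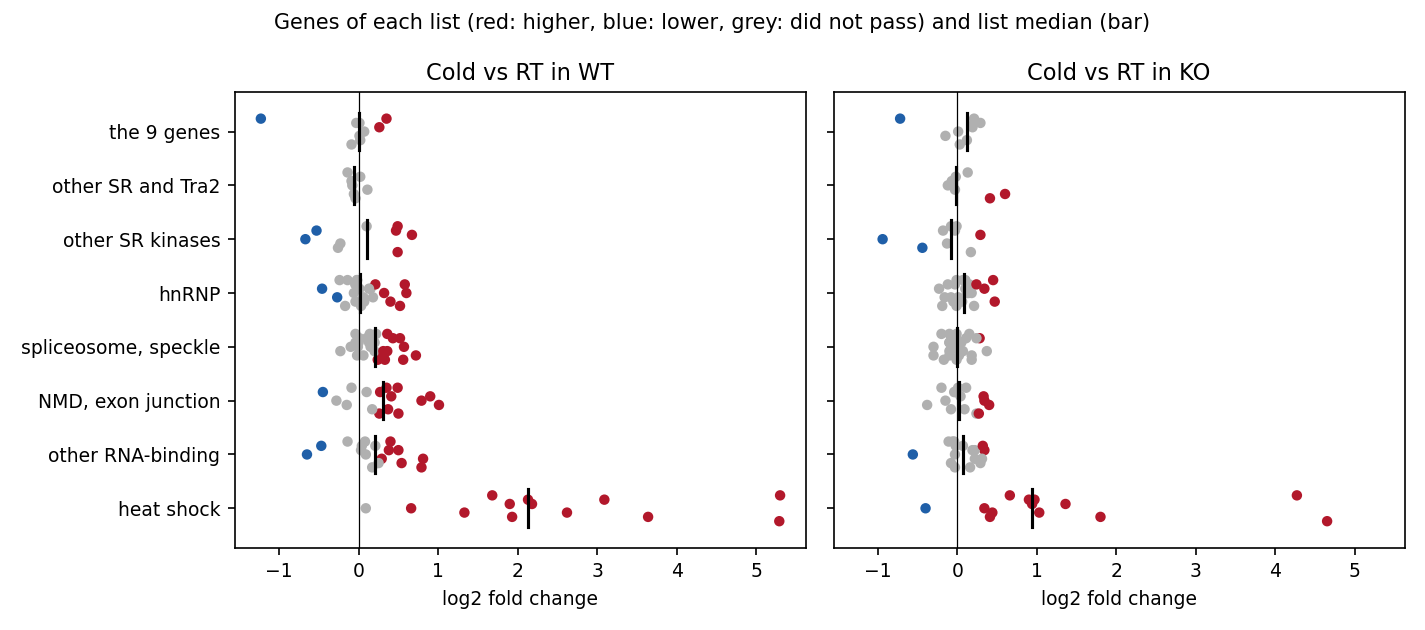
Fitted log2 fold change in the cold (horizontal axis) for the genes of each list in wild type and in KO, with 1 point per gene (red called higher, blue lower, grey not passed) and a bar at the median. Heat shock genes have medians of 2.13 in wild type and 0.94 in KO, and the members have medians of 0.01 and 0.12; with library totals alone the members' medians are -0.17 and 0.15.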

How the data were processed

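Brown fat RNA was sequenced in 12 pools, grouped by the labels. The deposited values are raw counts per Ensembl gene, which the authors made with STAR and HTSeq on GRCm38, per the submitters' processing notes; the sources used here give no versions. File names carry the word reverse, which names a strand setting of HTSeq, and the kit is not given. Reads with several alignments are in no gene count. The 5 HTSeq summary lines of each file stayed out of library sizes and tests: of all lines' sum, reads outside genes made up 1.644 to 2.262%, ambiguous reads 1.069 to 1.373%, unaligned reads 1.118 to 1.862% and reads with several alignments 26.61 to 30.25%.

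In R 4.3.3, edgeR 4.0.16 fitted 1 mean per group to all 12 libraries (TMM factors 0.798 to 1.18; common biological coefficient of variation 13.6%) after filterByExpr kept 15208 genes and removed 38171. Adjusted p come from its quasi-likelihood test with Benjamini-Hochberg adjustment, threshold 0.05, and fitted values used a prior count of 0.125. Symbols and exon lengths came from GENCODE M21, which matched 53274 of 53379 IDs. The SE of a log2 fold change was derived from its test statistic. Intervals are 95%, built from that SE, and concern differences of group means, with the spread between pools estimated over all 12 libraries. The code was tested on simulated data in which few genes were changed, so that test did not cover shifts of scaling between groups.

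The 23 alternatives were DESeq2 size factors, library totals, filters (none beyond 1 count, or 1 CPM in 6 libraries), DESeq2 1.42.0, limma 3.58.1 (voom), only the libraries compared, removal of genes of the mitochondrial genome, a replicate block, muscle marker adjustments and each library left out. The named genes are the 9 members, Cdk7 and Ucp1, up to 4 genes of smallest p per pathway list and comparison, and the genes most like 4 of the members; some genes that the rule names are not reported here. The members and lists were chosen with earlier results of these data known, so the lists' counts are descriptions.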

Additional observations from a re-analysis of the deposited data

Results flagged for a closer look

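No member had a cold response that passed the test of a difference between genotypes. Among the other genes named by the rule and reported here, 23 did, as the interaction in the quasi-likelihood test of edgeR, Benjamini-Hochberg adjusted, and for each the value is the log2 cold response in KO minus that in wild type. Of these, 5 were above 0 and 18 below. The call was kept in all 21 alternatives by 9 of the 23, and none changed sign. It was lost with library totals alone by 10 and without the 2 libraries richest in muscle markers by 10.

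Ucp1, the uncoupling protein of brown fat, differed by -1.1. It was at 8500, 6630 and 6790 CPM in wild type at room temperature and at 17500, 15900 and 14800 CPM in the cold, and in KO at 4390, 3910 and 3610 CPM and then at 3720, 4280 and 4210 CPM. The chaperones Hspa8 (-2.2), Hsp90aa1 (-1.59), Hsp90ab1 (-1.52) and Hspb1 (-0.96) had smaller rises in KO. Of the splicing activators, Tra2a (0.66) and Tra2b (0.45) differed the other way. All of these kept their call in the 21 alternatives.

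In the kinase list, Clk3 differed by -0.66 and kept its call in the 21 alternatives. Srpk1 (-0.57) lost it with library totals (-0.35), Srpk2 (0.51) without the muscle-rich libraries, and Dyrk1a (-0.38) in 11 alternatives, with values from -0.47 to -0.17 over all 21. For Dyrk1a these include leaving out wild-type room-temperature pool 2 or 3, KO room-temperature pool 5 or 6, wild-type cold pool 2 or 3, or KO cold pool 1 or 2. In the decay and exon junction list, Rbm8a (-0.61) kept its call, while Smg5 (-0.55) lost it with library totals (-0.33) and Rnps1 (-0.46) in 3 alternatives.

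In the spliceosome list, Sf3a1 (-0.55), Sf3b3 (-0.57) and Snrpa (-0.5) lost their calls with library totals, at -0.33, -0.35 and -0.28. Sf3a1 and Snrpa lost it without the muscle-rich libraries too, and Snrpa without KO room-temperature pool 6. Malat1, a nuclear speckle RNA, differed by 0.6, and the call was lost in 6 alternatives, among them without wild-type room-temperature pool 2, wild-type cold pool 1 or 2, or KO cold pool 1 or 2 (0.47 to 0.84 over all alternatives). Tnpo3 differed by -0.56, and by -0.34 with library totals, where it did not pass. Of the hnRNP genes, Hnrnpf (-0.43) lost its call in 3 alternatives and Hnrnpll (0.47) in 10, among them without wild-type room-temperature pool 2 or 3, KO room-temperature pool 4 or 6, wild-type cold pool 2 or 3, or KO cold pool 1 or 2 (0.38 to 0.69 over all alternatives). Of the genes of other RNA-binding proteins, Rbm17 (-0.63) lost it in 1 alternative and Rbmx (-0.44) in 3.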

How the results depend on the processing

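Of 999 values of members over 45 results, 863 kept direction and side of the threshold, 32 lost a call, 31 gained one and 73 changed sign, mostly values near 0. The cause was not tested for any of them. Depth limits Cirbp most, with 96 to 771 counts per library.

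With library totals in place of TMM factors, the median of all genes moved to 0.22 and 0.45 for KO against wild type at room temperature and in the cold, and to -0.23 for cold in wild type. KO against wild type at room temperature then had 4739 genes higher and 1267 lower (2940 and 3198 with TMM), 5 members higher and 0 lower, Rbm3 at 0.21 and Srsf2 at 0.2. In the cold it had 7881 higher and 1073 lower (3939 and 4222), 9 members higher and 0 lower, Rbm3 at 0.36, Srsf2 at 0.26 and Srsf3 at 0.22. Cold in wild type had 1826 higher and 4813 lower (3503 and 3531), 0 members higher and 2 lower, Clk1 at -0.16, Rbm3 at -0.12, Srsf2 at -0.18 and Srsf3 at -0.17. Cold in KO had 801 higher and 675 lower (1109 and 1149). The difference of the cold responses had 2388 higher and 711 lower (1614 and 1967), 1 member higher, Clk4 at 0.14, Rbm3 at 0.15, Srsf2 at 0.06 and Srsf6 at 0.08.

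With limma's voom, cold in KO had 1960 genes higher and 2195 lower, 1 member higher and 2 lower, and Rbm3 at -0.01; the difference had 2446 higher and 1 member higher; KO against wild type had 1 member higher, Rbm3 at 0.05 and Srsf2 at 0.03 at room temperature, and 2 members lower and Clk4 at -0.02 in the cold. With DESeq2 size factors, 1 member was higher in KO at room temperature. With no filter, 1 member was higher in each of cold in KO, cold in wild type, the difference and KO at room temperature, and 4 were higher and 0 lower in KO in the cold, with Clk1 at -0.01, Srsf2 at -0.01 and Srsf3 at 0 for cold in wild type and Clk1 at -0.02 in KO at room temperature. With the stricter filter, 0 members were lower in KO in the cold, Clk1 and Srsf2 were each at -0.01 for cold in wild type, and Rbm3 was at 0.02 and Srsf2 at 0.01 in KO at room temperature. With only the 6 libraries compared, 1 member was higher for cold in KO, 0 for KO at room temperature and 4 for KO in the cold.

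With a muscle covariate, cold in wild type had Clk1 at -0.02 and Srsf7 at 0, and KO at room temperature had 1 member higher, Clk1 at -0.02, Rbm3 at 0.02 and Srsf2 at 0.01. Without the 2 muscle-rich libraries, KO at room temperature had 1620 genes higher and 1946 lower, 1 member higher and Clk1 at -0.04. Cold in KO had 586 higher and 628 lower, and the difference had 840 higher and 1063 lower with Rbm3 at 0.07. Cold in wild type had 1 member higher, Clk1 at -0.06, Rbm3 at -0.05, Srsf2 at -0.01, Srsf3 at 0 and Srsf7 at 0.03.

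With each library left out in turn, members higher ranged from 0 to 2 for KO at room temperature, 2 to 4 for KO in the cold (lower 0 to 1), 1 to 2 for cold in wild type, 0 to 1 for cold in KO and 0 to 1 for the difference. All genes for cold in KO ranged from 601 to 1353 higher and 570 to 1306 lower. For KO at room temperature Rbm3 ranged from -0.13 to 0.07, Clk1 from -0.11 to 0.21 and Srsf2 from -0.06 to 0.03, and in the cold Rbm3 from -0.16 to 0.03 and Clk4 from -0.02 to 0.06. For cold in wild type Rbm3 ranged from -0.05 to 0.16, Clk1 from -0.1 to 0.22, Srsf2 from -0.02 to 0.06, Srsf3 from -0.01 to 0.09, Srsf5 from -0.16 to 0.01 and Srsf7 from -0.1 to 0.03. For cold in KO Rbm3 ranged from -0.08 to 0.08 and Srsf5 from -0.04 to 0.08, and for the difference Rbm3 from -0.14 to 0.05 and Clk4 from -0.14 to 0.02.

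Replicate numbers are shared by 9 libraries, and deviations of libraries with the same number correlated from -0.31 to 0.23, above 0.1 in 1 of 9 pairs. Libraries with different numbers correlated from -0.32 to 0.38. These values gave no sign that the numbers pair the pools. With 3 pools per group they cannot exclude a shared day or batch, and the KO room-temperature pools are not covered. A replicate block changed no call of a member: Cirbp was at -1.23 for cold in wild type and at 1.04 for KO in the cold.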
